A study of Rattus norvegicus with 9 samples.

Results

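Hepcidin and 7 further genes of iron handling were examined in the dorsal root ganglia (DRGs) of rats with chronic post-ischemia pain (CPIP) and of CPIP rats given electroacupuncture (EA). The 8 genes were taken by their symbols from the table of 20413 genes: Hamp, Slc40a1, Tfrc, Tf, Fth1, Ftl1, Slc11a2 and Hfe. Slc40a1 was listed under a pair of gene identifiers, so the 8 genes filled 9 rows, and all 9 rows reached the mean FPKM of at least 0.1 required for testing. Hamp was chosen by its FPKM values in these same groups, because it appeared in the CPIP and CPIP+EA libraries, so its levels are given as a description with no test. The other 7 genes were tested.

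The animals were male Sprague-Dawley rats of 8 to 10 weeks. In the CPIP group, a tight O-ring stopped the blood flow of a hind limb for 3 h under anesthesia and was then cut for reperfusion. In the Sham group the ring had been opened beforehand, so these rats were anesthetized alike but had no ischemia. CPIP+EA rats had the CPIP procedure and EA at 100 Hz for 30 min a day on 10 days, through needles at the Zusanli and Kunlun acupoints of both hind limbs, and what the rats without EA received in its place is not given in the sources used here. On day 10, after perfusion with saline, the right L4 to L6 DRGs, on the side of the O-ring, were taken, and mRNA of 3 rats per group gave 3 libraries per group, 9 in all. CPIP is a model of ischemic limb injury in the animal, and each DRG library mixes sensory neurons, glia, immune cells and what remained of the blood.

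Hepcidin, the product of Hamp, is a small peptide hormone made mainly by hepatocytes. It binds ferroportin, the product of Slc40a1 and the exporter of iron from cells, and causes it to be taken in and degraded, so that iron stays inside cells. Hamp transcription in the liver is raised by bone morphogenetic protein (BMP) signaling through SMAD proteins and by interleukin-6 through JAK2 and STAT3. Transferrin (Tf) carries iron in plasma, its receptor (Tfrc) brings it into cells, DMT1 (Slc11a2) moves iron across membranes, and ferritin, built of heavy (Fth1) and light (Ftl1) chains, stores it.

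The promoter of Hamp is shown because Hamp was the member whose level stood apart between the groups. Promoters were read from RefSeq on the GRCr8 build, from 250 bases before to 50 bases after the annotated start. In these windows 5 patterns were searched, with N for any base. GGCGCC is the core of a BMP response element, TTCNNNGAA is a STAT-type site, TGACNNNGC is the core of an antioxidant response element and ACGTG is the core of a hypoxia response element, and these were searched on both strands. CAGTGN, the loop of an iron-responsive element, was searched on the strand of the gene only, and none of the patterns that matched overlapped another. A match is a description of the letters and not of a bound site. Of 33469 rat promoters of the same length, 11% held GGCGCC, 8.87% held TTCNNNGAA, 12.1% held TGACNNNGC, 19.3% held ACGTG and 34.9% held CAGTGN.

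The 250 bases before the start of Hamp, at chr1:95300272-95300521 on the minus strand, held GGCGCC with its first base at -129 and TTCTTGGAA, a match of TTCNNNGAA, at -117, both on the strand of the gene. They are printed 5′ to 3′ with the matched letters in capitals.
Hamp: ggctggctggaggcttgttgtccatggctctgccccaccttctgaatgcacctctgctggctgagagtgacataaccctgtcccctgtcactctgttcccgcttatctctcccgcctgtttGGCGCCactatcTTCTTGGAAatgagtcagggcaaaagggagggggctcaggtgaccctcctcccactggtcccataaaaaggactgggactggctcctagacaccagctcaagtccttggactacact

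The members with a promoter in the RefSeq table were Hamp, Slc40a1, Tfrc, Tf and Slc11a2, 5 of 8. Tfrc held GGCGCC at -118 and ACGTG at -31, and no pattern matched in the windows of Slc40a1, Tf or Slc11a2, the last of which has a pair of listed starts. The windows reach only 50 bases past the start, so an iron-responsive element further along these mRNAs could not be found. Of the 5 genes whose levels across libraries were most like those of Hamp, described below, the table held promoters of 3. Of these, Reg3b and Serpina3n held TTCNNNGAA at -129 and -123 and Vip held none of the patterns. The stretches around these matches are set side by side to show the letters, with GGCGCC and TTCNNNGAA in capitals. They lie at chr1:95300368-95300412 (minus strand) for Hamp, chr4:112419635-112419667 (plus) for Reg3b, chr6:129088257-129088289 (plus) for Serpina3n and chr11:81690419-81690448 (minus) for Tfrc.
Hamp: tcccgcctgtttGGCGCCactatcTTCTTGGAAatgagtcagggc
Reg3b: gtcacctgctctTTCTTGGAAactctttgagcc
Serpina3n: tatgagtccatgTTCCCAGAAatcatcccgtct
Tfrc: acctgccgccttGGCGCCttttctctccca
Hamp and Reg3b share the same 9 letters, TTCTTGGAA, whereas the match in Serpina3n has other bases at its center.

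Levels are given as FPKM, fragments scaled to the length of the transcript and the size of the library, which allows genes to be compared with each other within a library. The FPKM of a library summed to between 445647 and 482940. The summed FPKM of 8 sensory neuron markers was 4593 to 5692 in the 9 libraries. For 5 of the 8 the values did not overlap between CPIP and Sham, against a share of 15.9% of all genes tested. The values of Tubb3 and Prph lay above Sham and those of Rbfox3, Snap25 and Scn10a below it. In that comparison limma called 0 of the 8, with 3 at an unadjusted p under 0.05, against a share of 8.66% of all genes tested. All 8 markers of injured sensory neurons were called higher in CPIP than in Sham, where 0.355% of all genes were called, and in CPIP+EA than in Sham, where 0.483% were. Read counts were not used here, so the number of libraries limits the precision, and p-values measure the spread between 3 libraries per group.

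The iron genes covered a wide range of levels. Averaged over the 9 libraries, Fth1 had 4648 FPKM and was the most abundant gene of the table, ranking 1 or 2 in every library. Ftl1 followed with 544.3 FPKM (rank 76), then Tfrc with 49.7, Tf with 34.3, Slc11a2 with 12.1, Slc40a1 (ID 170840) with 4.03 and Hfe with 1.78 FPKM. The values of Tfrc and Tf overlapped over the 9 libraries, while those of each other pair of neighbors in this order did not. Hamp lay below all of these in the Sham libraries, and in CPIP and CPIP+EA it lay within or close to the range of Slc11a2, with a rank between 6114 and 8430 of 20413 genes. The plot of FPKM by library shows these levels.

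**Figure D1:**
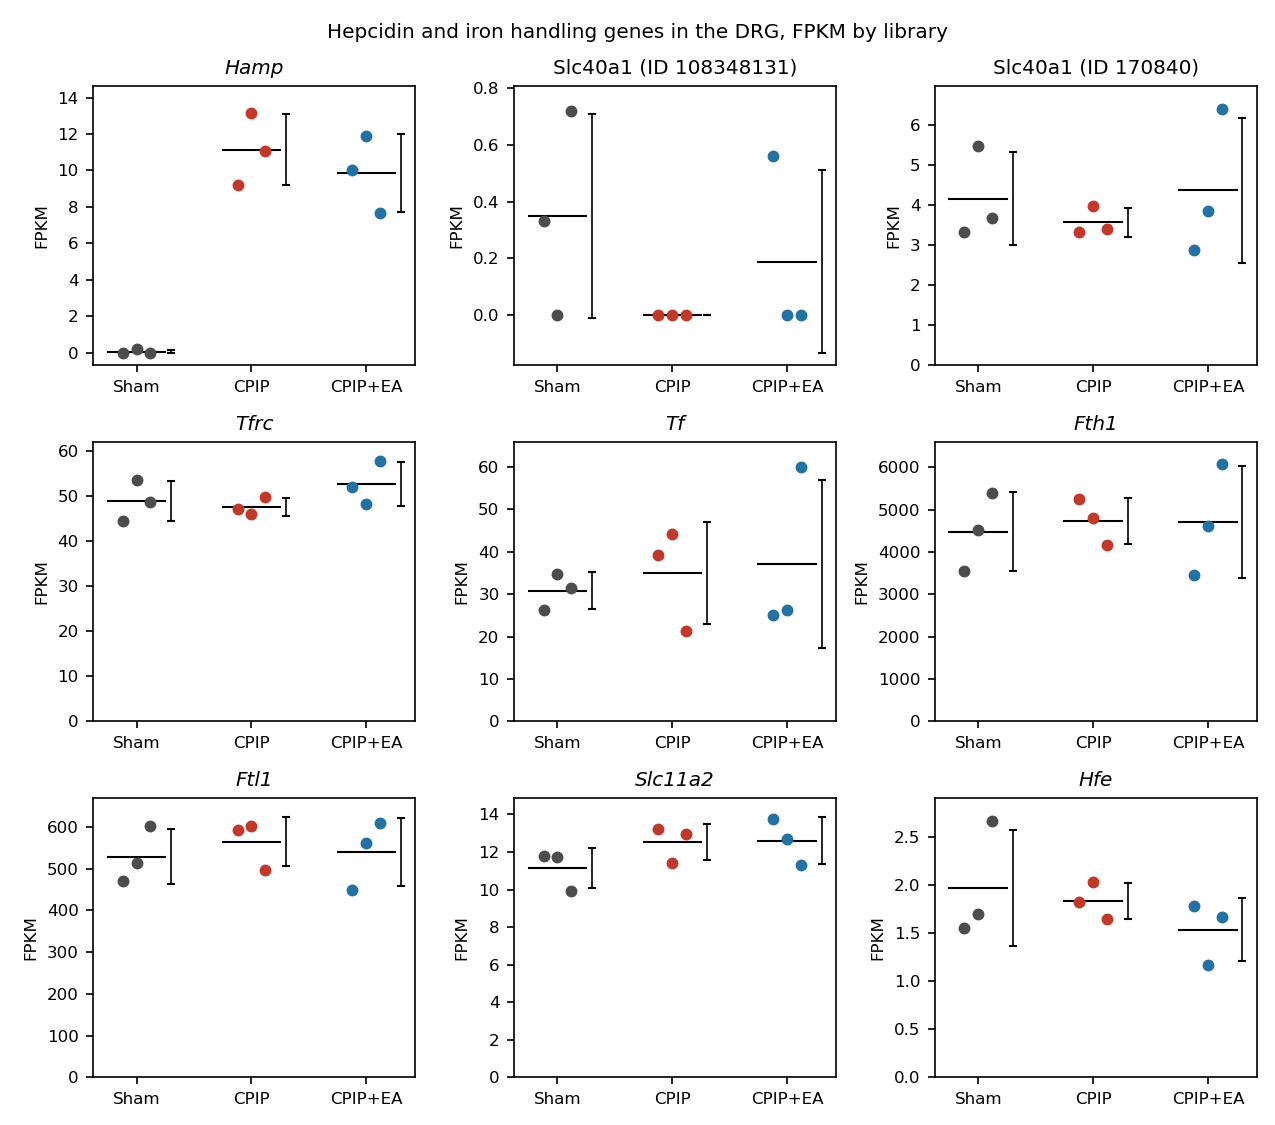
FPKM of the 9 rows of the 8 iron genes (y axis, a linear scale of its own for each gene) in the Sham, CPIP and CPIP+EA libraries. Points are the 3 libraries of a group in the order of their replicate numbers, horizontal lines are means and bars beside them are SD. Hamp lies at or near 0 in Sham and between 7.65 and 13.15 in the other 6 libraries, whereas the groups overlap for every other row.

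Hamp was near 0 in Sham and present in both CPIP groups. In Sham, Hamp was listed at 0, 0.18 and 0 FPKM in replicates 1 to 3. In CPIP it had 9.21, 13.15 and 11.09 FPKM, with a mean of 11.2 ± 1.97 (SD, n = 3). In CPIP+EA it had 10.05, 11.92 and 7.65 FPKM, with a mean of 9.87 ± 2.14 (SD, n = 3). Every CPIP and CPIP+EA library lay above every Sham library, whereas the CPIP and CPIP+EA libraries overlapped. On the scale of log2(FPKM + 0.5), the difference was 4.38 for CPIP against Sham, 4.21 for CPIP+EA against Sham and -0.17 for CPIP+EA against CPIP. With each library left out in turn, the last ran from -0.32 to -0.011. The differences from Sham rest on what is added to values at 0: with 0.1 in place of 0.5 they were 6.30 and 6.12, and with 1 they were 3.51 and 3.34. These comparisons share their Sham libraries and their CPIP libraries.

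Hamp is best known from the liver, so liver genes were read in the same libraries. Of 9 liver markers, 5 passed the filter. Alb, which encodes albumin, had 0.12 to 0.36 FPKM in the Sham libraries, 0.21 to 0.40 in those of CPIP and 0.85 to 1.44 in those of CPIP+EA. Ahsg, which encodes fetuin-A, was listed at 0 in all 6 Sham and CPIP libraries and at 0.04 to 0.08 in CPIP+EA. Apoh, which encodes a plasma glycoprotein, had 0.94 to 1.73 FPKM in the Sham libraries, 1.68 to 1.80 in those of CPIP and 1.82 to 2.54 in those of CPIP+EA. Alb and Apoh were thus higher in every CPIP+EA library than in every other library. The margin of Apoh was narrow, at 1.82 FPKM in CPIP+EA over 1.80 in CPIP. Of all genes tested, 8.23% had CPIP+EA values that stood clear of CPIP, and 16.2% had values clear of Sham. Limma did not call either gene in these comparisons. With CPIP as the reference, Alb had an adjusted p of 0.944 and Apoh of 0.997. With Sham as the reference, they had 0.0212 and 0.217. Apoa1 and Cyp2e1, the other markers tested beside Serpina1, had 0.04 to 0.63 FPKM over the 9 libraries, with groups that overlapped. The summed level of the 9 liver markers was 7.46 to 8.81 FPKM in the Sham libraries, 13.1 to 16.8 in those of CPIP and 13.8 to 18.5 in those of CPIP+EA, and most of it came from Serpina1, which encodes alpha-1 antitrypsin, with 5.16 to 7.04, 11.09 to 14.38 and 9.75 to 14.26 FPKM. The part of liver RNA in the level of Hamp was not tested.

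The genes whose values followed those of Hamp most closely were found by the root mean square (RMS) difference from Hamp over the 9 libraries, each gene being taken as log2(FPKM + 0.5) minus its own Sham mean. The closest was Stac2, which encodes an adaptor protein of voltage-gated calcium channels, at an RMS difference of 0.36. It had 0.24 to 0.55 FPKM in the Sham libraries, 12.60 to 14.74 in those of CPIP and 11.20 to 17.48 in those of CPIP+EA. Vip, which encodes the neuropeptide vasoactive intestinal peptide, followed at 0.49, with 0.08 to 0.24, 10.36 to 17.00 and 15.90 to 21.81 FPKM. Both thus had levels similar to Hamp in CPIP and were close to 0 in Sham.

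The other three were Serpina3n, a serine protease inhibitor, at an RMS difference of 0.65, Atf3, a transcription factor induced by nerve injury, at 0.81 and Reg3b, a secreted lectin, at 0.98. Serpina3n had 0.38 to 1.61 FPKM in the Sham libraries, 27.81 to 59.33 in those of CPIP and 26.56 to 40.51 in those of CPIP+EA. Atf3 was higher at the outset, with 4.77 to 6.86, 50.51 to 61.58 and 57.37 to 74.87 FPKM. Reg3b had 0.73 to 1.36, 13.38 to 16.04 and 7.73 to 14.14 FPKM. For all 5 genes, as for Hamp, the CPIP and CPIP+EA values lay above every Sham value, and this likeness was what selected them. The summed level of the 8 markers of injured sensory neurons was 176 to 183.1 FPKM in the Sham libraries, 788.6 to 911 in those of CPIP and 855.8 to 960.1 in those of CPIP+EA, and the part of these cells in the level of Hamp was not tested. In bulk tissue, more cells of a type and more RNA per cell cannot be told apart.

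**Figure D2:**
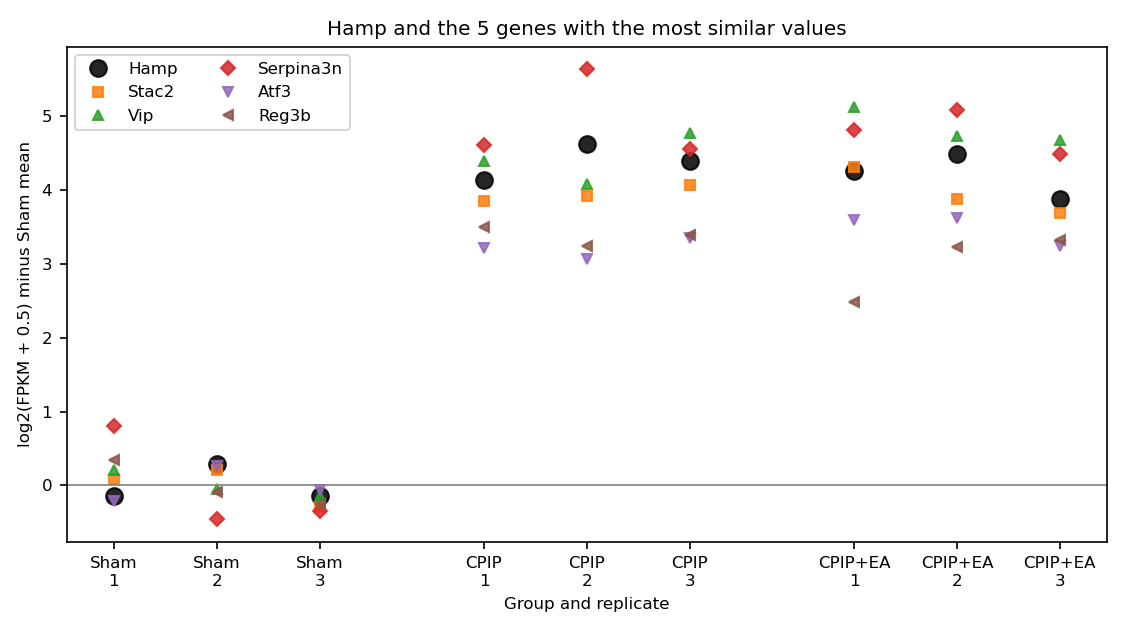
Hamp and the 5 genes with the smallest RMS difference from it (y axis, log2(FPKM + 0.5) minus the mean of the 3 Sham libraries; x axis, group and replicate). Each point is 1 library, and all 6 genes lie near 0 in Sham and above it in every CPIP and CPIP+EA library.

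The other 7 iron genes, 8 rows in all, showed no called difference in any comparison. A gene was called at a limma adjusted p under 0.01 (Benjamini-Hochberg, over the 17187 genes tested) if it also differed by 1.5-fold or more in either direction. For CPIP against Sham, limma called 0 of the 8 rows, where 0.355% of all genes tested were called. At an unadjusted p under 0.05 there were again 0 rows, against 8.66% of all genes, and 0 rows had groups whose values did not overlap, against 15.9%. The median log2 change of the 8 rows was 0.030, beside -0.0064 over all genes tested, and the smallest adjusted p was 0.698.

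Between CPIP+EA and CPIP, limma called 0 of the 8 rows, and 0% of all genes were called in this comparison. With an unadjusted p under 0.05 there were 0 rows against 4.29% of all genes, and without overlap 0 rows against 8.23%. The median log2 change was 0.019, beside 0.012 over all genes, and the smallest adjusted p was 0.997. For CPIP+EA against Sham, 0 of the 8 rows were called by limma where 0.483% of all genes were, 0 rows had an unadjusted p under 0.05 where 12.2% did, and 0 rows were without overlap where 16.2% were. The median log2 change was 0.041, beside 0.0014 over all genes, and the smallest adjusted p was 0.547. Without the Slc40a1 row that stood at 0 in every CPIP library, the medians of the other 7 rows were 0.095, 0.0066 and 0.055 for CPIP against Sham, CPIP+EA against CPIP and CPIP+EA against Sham. For 8 rows a count of 0 calls is near the background share, and the intervals given with each gene show the size of change that these libraries could have missed.

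**Figure D3:**
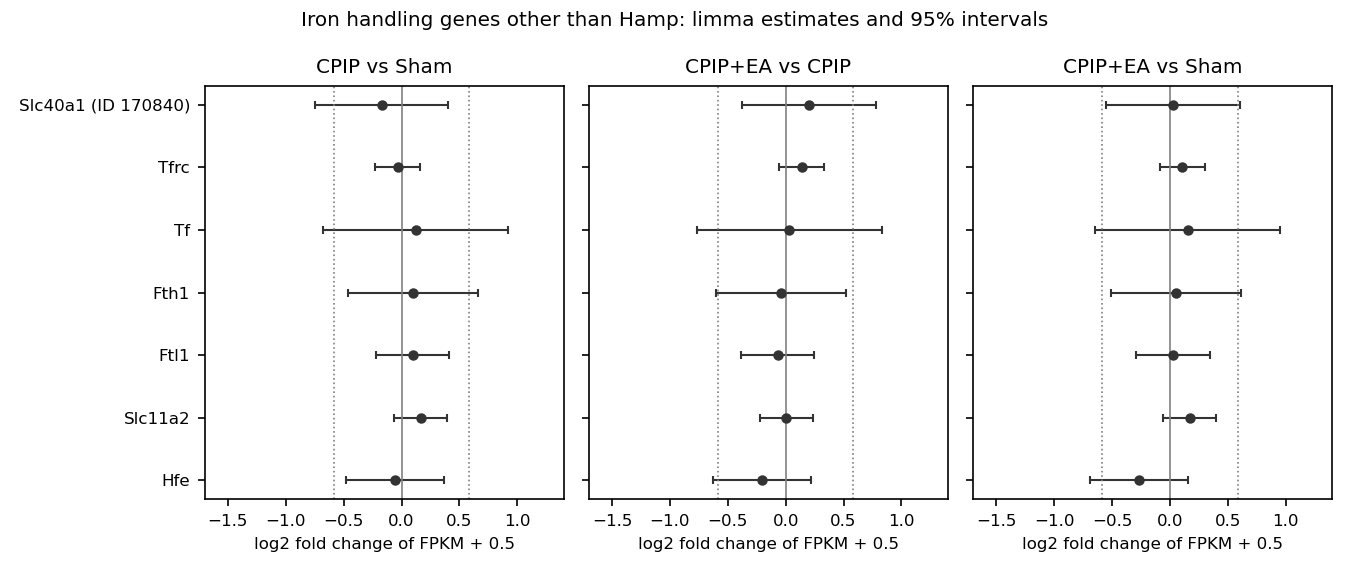
Log2 fold change of FPKM + 0.5 (x axis) for the 7 iron genes other than Hamp in the 3 comparisons, without the Slc40a1 row that stood at 0 in every CPIP library. Points are limma estimates, bars are 95% intervals, and dotted lines mark a 1.5-fold change in either direction. Every interval includes 0, and those of Tfrc, Slc11a2 and Ftl1 stay inside the dotted lines in all 3 comparisons.

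The RNA of Slc40a1, the ferroportin gene, had overlapping values in the groups in which Hamp stood apart. Hepcidin acts on the ferroportin protein, which was not measured. Under ID 170840 Slc40a1 had 3.33, 5.48 and 3.67 FPKM in the Sham libraries, 3.32, 3.98 and 3.40 in those of CPIP, and 2.87, 3.86 and 6.38 in those of CPIP+EA. The groups overlapped, and the highest and the lowest value were both in CPIP+EA. Its log2 change was -0.17 (SE 0.26, adjusted p = 0.949) for CPIP against Sham, 0.20 (SE 0.26, adjusted p = 0.997) for CPIP+EA against CPIP and 0.027 (SE 0.26, adjusted p = 0.983) for CPIP+EA against Sham. The intervals ran from -0.75 to 0.41, from -0.38 to 0.78 and from -0.55 to 0.61, so each of them held a 1.5-fold change in 1 direction.

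The row of Slc40a1 with ID 108348131 held much smaller values. It was listed at 0.33, 0 and 0.72 FPKM in Sham, at 0 in each of the 3 CPIP libraries, and at 0.56, 0 and 0 in those of CPIP+EA. With every CPIP library at 0, no fold change is given, and the groups overlapped in each comparison because Sham and CPIP+EA libraries also stood at 0. This identifier was absent from the RefSeq gene list used, so its locus is not described here, and reads of a near-identical copy could be shared between both rows. Summed over both rows, Slc40a1 had 3.66, 5.48 and 4.39 FPKM in the Sham libraries, 3.32, 3.98 and 3.40 in those of CPIP, and 3.43, 3.86 and 6.38 in those of CPIP+EA. The sum changed by -0.29 (log2, SE 0.21, adjusted p = 0.837) for CPIP against Sham, by 0.27 (SE 0.21, adjusted p = 0.997) for CPIP+EA against CPIP and by -0.015 (SE 0.21, adjusted p = 0.988) for CPIP+EA against Sham. Without CPIP+EA replicate 3 the change between CPIP+EA and CPIP was 0.029, and without Sham replicate 2 that between CPIP and Sham was -0.15. CPIP+EA replicate 3 held the highest summed level of the 9 libraries, and the sum, like the single rows, overlapped between the groups.

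Among the genes of iron uptake, Tfrc, the transferrin receptor, varied little between libraries. It had 44.54, 53.46 and 48.58 FPKM in the Sham libraries, 47.17, 45.89 and 49.70 in those of CPIP, and 51.87, 48.14 and 57.78 in those of CPIP+EA. On the log2 scale the change was -0.035 (95% interval -0.23 to 0.16, adjusted p = 0.972) for CPIP against Sham. It was 0.14 (-0.054 to 0.33, adjusted p = 0.997) for CPIP+EA against CPIP and 0.11 (-0.089 to 0.30, adjusted p = 0.688) for CPIP+EA against Sham. The CPIP+EA mean of 52.6 FPKM was the highest of the groups, but its libraries overlapped with those of both other groups.

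Slc11a2, which encodes the divalent metal transporter DMT1, had 11.77, 11.74 and 9.92 FPKM in Sham. Its CPIP libraries had 13.21, 11.42 and 12.97 FPKM and its CPIP+EA libraries 13.78, 12.71 and 11.33 FPKM. In each of the CPIP groups 2 of 3 libraries lay above the highest Sham value and the third lay among the Sham values. Its change on the log2 scale was 0.16 (95% interval -0.063 to 0.39, adjusted p = 0.772) for CPIP against Sham and 0.17 (-0.056 to 0.40, adjusted p = 0.547) for CPIP+EA against Sham, the lowest adjusted p among the members in that comparison. Between CPIP+EA and CPIP it was 0.0066 (-0.22 to 0.23, adjusted p = 0.998).

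Hfe, the hemochromatosis gene, whose product acts upstream of hepcidin in the liver, was low throughout. It had 1.56, 1.70 and 2.67 FPKM in the Sham libraries, 1.83, 2.03 and 1.65 in those of CPIP, and 1.78, 1.17 and 1.67 in those of CPIP+EA. Its group means of 1.98, 1.84 and 1.54 FPKM overlapped within their spread, and the Sham mean was raised by replicate 3. The estimated log2 change was -0.060 (95% interval -0.48 to 0.36, adjusted p = 0.977) for CPIP against Sham, -0.21 (-0.63 to 0.22, adjusted p = 0.997) for CPIP+EA against CPIP and -0.27 (-0.69 to 0.16, adjusted p = 0.631) for CPIP+EA against Sham. Without CPIP+EA replicate 2 the change between CPIP+EA and CPIP was -0.068, and without Sham replicate 3 that between CPIP+EA and Sham was -0.075.

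Tf, which encodes transferrin and is expressed by glia of the nervous system as well as by the liver, varied widely within the groups. It had 26.14, 34.76 and 31.51 FPKM in the Sham libraries, 39.21, 44.21 and 21.38 in those of CPIP, and 25.10, 26.32 and 59.97 in those of CPIP+EA. CPIP+EA replicate 3 held the highest value and CPIP replicate 3 the lowest, which makes a range of 2.81-fold over the 9 libraries. The log2 change was 0.12 (95% interval -0.68 to 0.92, adjusted p = 0.976) for CPIP against Sham, 0.032 (-0.77 to 0.83, adjusted p = 0.997) for CPIP+EA against CPIP and 0.16 (-0.64 to 0.95, adjusted p = 0.913) for CPIP+EA against Sham. Without CPIP+EA replicate 3, the change between CPIP+EA and CPIP was -0.37, and without CPIP replicate 3 it was -0.28, so the direction for Tf changed with either of these libraries.

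The ferritin genes were abundant, and their values overlapped between the groups. Fth1 had 3547.18, 4511.03 and 5395.99 FPKM in the Sham libraries, 5253.77, 4801.81 and 4169.75 in those of CPIP, and 3450.66, 4608.39 and 6090.13 in those of CPIP+EA. The lowest and the highest value were both in CPIP+EA, in replicates 1 and 3. On the log2 scale the change was 0.095 (95% interval -0.47 to 0.66, adjusted p = 0.974), -0.040 (-0.60 to 0.52, adjusted p = 0.997) and 0.055 (-0.51 to 0.62, adjusted p = 0.960) for CPIP against Sham, CPIP+EA against CPIP and CPIP+EA against Sham.

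Ftl1 had 470.89, 514.53 and 600.99 FPKM in the Sham libraries, 593.43, 602.18 and 497.36 in those of CPIP, and 448.75, 561.03 and 609.18 in those of CPIP+EA. As for Fth1, CPIP+EA replicates 1 and 3 were the lowest and the highest of all libraries. Its change on the log2 scale was 0.096 (95% interval -0.22 to 0.41, adjusted p = 0.948), -0.071 (-0.39 to 0.25, adjusted p = 0.997) and 0.025 (-0.29 to 0.34, adjusted p = 0.971) in the same order of comparisons. The mean ratio of Fth1 to Ftl1 was 8.43 ± 0.781 for Sham, 8.40 ± 0.44 for CPIP and 8.63 ± 1.21 for CPIP+EA (± SD over 3 libraries), so the heavy and light chain transcripts kept a similar proportion, between 7.53 and 10.0 in single libraries.

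Ferritin genes have near-identical copies, among which reads can be divided. Of 5 ferritin rows in the table, LOC689130, which RefSeq lists as the pseudogene Fth1-ps5, had 358.08, 352.73 and 431.30 FPKM in the Sham libraries, 456.04, 516.37 and 328.28 in those of CPIP, and 271.30, 314.28 and 348.12 in those of CPIP+EA. It thus stood below Ftl1 but within the same order of size, and the CPIP+EA libraries held its lowest group mean, 311.2 ± 38.5 FPKM (SD, n = 3), against 433.6 ± 96 in CPIP. The values of Fth1 and this row are uncertain where reads could be exchanged between them. The other rows, RGD1563378 and Fthl17e, had at most 0.30 and 0.06 FPKM.

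Fth1, Ftl1 and Tf were lowest in the same library of each group. In each group, the library with the lowest Fth1 (replicate 1 of Sham, replicate 3 of CPIP, replicate 1 of CPIP+EA) also had the lowest Ftl1 and the lowest Tf. The same 3 libraries had the lowest summed level of their group for 11 erythroid markers, 6 neutrophil markers and 6 markers of Schwann cells and myelin. The sum of the 8 sensory neuron markers was instead the highest of its group in these libraries, at 5304, 5417 and 5692 FPKM in the same order. The satellite glia, macrophage and injured neuron sums were neither the lowest nor the highest of their group in all 3. The erythroid sum ran from 775.7 to 2440 FPKM in Sham, from 415.7 to 1483 in CPIP and from 430.6 to 3676 in CPIP+EA. The neutrophil sum ran from 44.4 to 127, from 27.8 to 215.8 and from 58 to 537.7 FPKM, and the myelin sum from 7124 to 11200, from 6774 to 11990 and from 4801 to 9410 FPKM. CPIP+EA replicate 3 had the highest Fth1, Ftl1, Tf and summed Slc40a1 of the 9 libraries, and the highest erythroid, neutrophil and macrophage sums, the last at 190.4 FPKM against 92.8 to 135.9 in the other 8 libraries. For Hamp, by contrast, CPIP+EA replicate 3 held the lowest value of its group. The part of blood cells, glia and neurons in the levels of the iron genes was not tested.

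**Figure D4:**
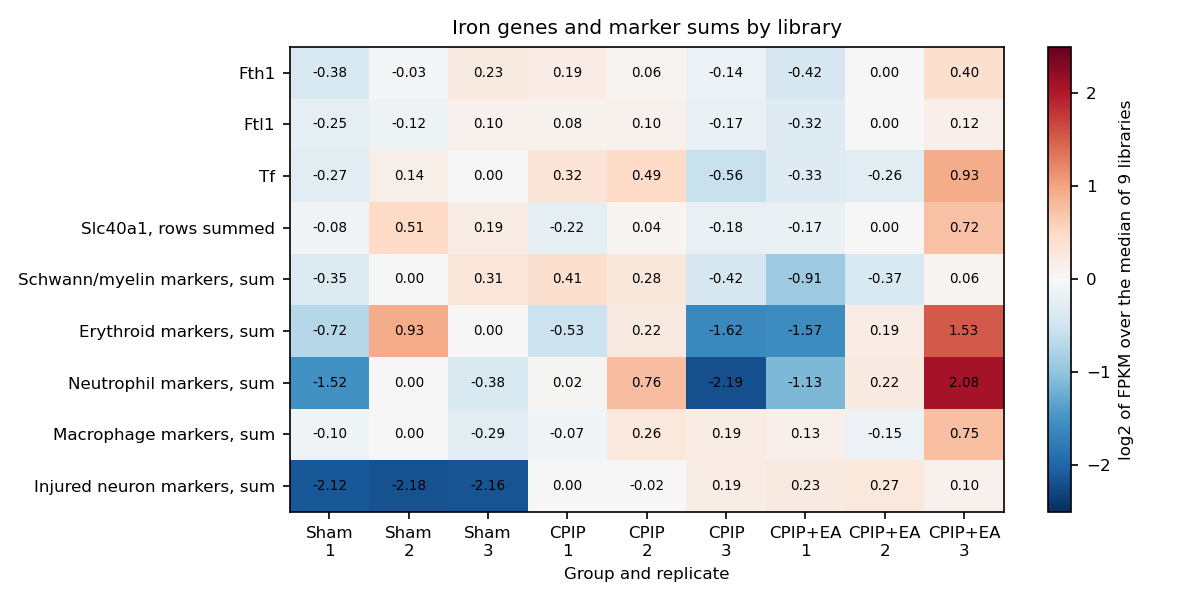
Log2 of FPKM over the median of the 9 libraries (color, with the value printed in each cell) for Fth1, Ftl1, Tf, summed Slc40a1 and the summed markers of 5 cell types, by library. CPIP+EA replicate 3 is the highest library for the 4 iron genes and for the erythroid, neutrophil and macrophage sums, while the injured neuron sum separates Sham from the other 6 libraries.

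The wider iron pathway was read from lists of 80 genes that excluded the members, of which 79 were in the table and 78 were tested. For CPIP against Sham, limma called 0 of the 78. At an unadjusted p under 0.05, 4 were higher and 2 lower, 7.69% of the list against 8.66% of all genes tested. The groups did not overlap for 12, or 15.4% against 15.9%. Between CPIP+EA and CPIP, limma again called 0, as over all genes. There 1 was higher and 3 lower at an unadjusted p under 0.05, 5.13% against 4.29%, and 6 were without overlap, 7.69% against 8.23%. For CPIP+EA against Sham, limma called 1 gene, 1.28% of the list against 0.483% of all genes. At an unadjusted p under 0.05, 7 were higher and 5 lower, 15.4% against 12.2%, and 15 were without overlap, 19.2% against 16.2%. These shares lay close to those over all genes, and the difference between them was not tested. The median log2 change of the 78 genes was -0.021, 0.0097 and -0.0079 in these comparisons, beside -0.0064, 0.012 and 0.0014 over all genes tested.

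The gene called was Smad1, which encodes a transcription factor that carries the BMP signal to the nucleus. It had 9.12, 9.39 and 8.13 FPKM in the Sham libraries, 12.68, 13.27 and 14.79 in those of CPIP, and 15.45, 14.25 and 13.55 in those of CPIP+EA. Every CPIP and CPIP+EA library lay above every Sham library. The estimated log2 change was 0.67 (SE 0.086, adjusted p = 0.00671) for CPIP+EA against Sham and 0.59 (SE 0.086, adjusted p = 0.0184) for CPIP against Sham, which missed the threshold. Between CPIP+EA and CPIP it was 0.084 (SE 0.086, adjusted p = 0.997). The adjusted p of CPIP+EA against Sham lay between 0.0087 and 0.0333 when each library was left out in turn and passed the threshold only without CPIP replicate 3. It was 0.0186 on a TPM scale, 0.0114 without the variance trend and 0.0263 with only these groups in the fit, each of which also ended the call.

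In the list of hepcidin control, which holds BMP and interleukin-6 signaling, 27 genes were tested. At an unadjusted p under 0.05, 3 were higher and 2 lower in CPIP than in Sham, 18.5% of the list against 8.66% of all genes. In CPIP+EA against Sham, 6 were higher and 4 lower, 37% against 12.2%, with the same Sham libraries. In CPIP+EA against CPIP, 1 was higher, 3.7% against 4.29%. Whether the list differed from other genes was not tested. Il6, the cytokine that drives hepcidin in inflammation, had 0, 0.06 and 0.06 FPKM in the Sham libraries, 0.12, 0.36 and 0.66 in those of CPIP, and 0.53, 0.83 and 0.95 in those of CPIP+EA. Every CPIP and CPIP+EA library was above Sham, at a low level throughout. The log2 change was 0.66 (adjusted p = 0.389) for CPIP against Sham, 0.56 (adjusted p = 0.997) for CPIP+EA against CPIP and 1.22 (adjusted p = 0.0359) for CPIP+EA against Sham, none of them called. With 0.1 or 1 added in place of 0.5, the changes from Sham were 1.64 or 0.39 for CPIP and 2.64 or 0.76 for CPIP+EA.

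Jak2, the kinase that passes the interleukin-6 signal on, had 9.52, 11.07 and 10.24 FPKM in the Sham libraries, 11.63, 12.06 and 12.99 in those of CPIP, and 13.28, 13.49 and 13.88 in those of CPIP+EA. The groups did not overlap in any of the comparisons, with a log2 change of 0.24 (adjusted p = 0.312) for CPIP against Sham, 0.14 (adjusted p = 0.997) for CPIP+EA against CPIP and 0.38 (adjusted p = 0.0441) for CPIP+EA against Sham. Socs3, a feedback inhibitor of JAK signaling, had 5.07, 5.85 and 3.48 FPKM in the Sham libraries, 5.61, 5.72 and 6.34 in those of CPIP, and 9.62, 7.42 and 6.19 in those of CPIP+EA, with a log2 change of 0.64 (adjusted p = 0.201) for CPIP+EA against Sham. These values did not pass the threshold.

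Smad6, an inhibitor of BMP signaling, had 1.77, 1.02 and 1.81 FPKM in the Sham libraries, 0.82, 0.77 and 1.03 in those of CPIP, and 0.84, 0.80 and 0.99 in those of CPIP+EA. Its log2 change was -0.55 (adjusted p = 0.336) for CPIP against Sham and -0.54 (adjusted p = 0.239) for CPIP+EA against Sham. Bmpr2, a BMP receptor, had 31.07, 31.55 and 38.69 FPKM in the Sham libraries, 29.69, 27.52 and 30.15 in those of CPIP, and 28.45, 28.96 and 26.33 in those of CPIP+EA, a log2 change of -0.20 (adjusted p = 0.571) and -0.26 (adjusted p = 0.264) against Sham. Without Sham replicate 3 the changes of Bmpr2 were -0.10 and -0.16. Both were lower in the means of the CPIP groups without passing the test. Of all 27 genes of the list, 13 were higher and 14 lower in each comparison with Sham. The activity of BMP signaling was not tested.

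**Figure D5:**
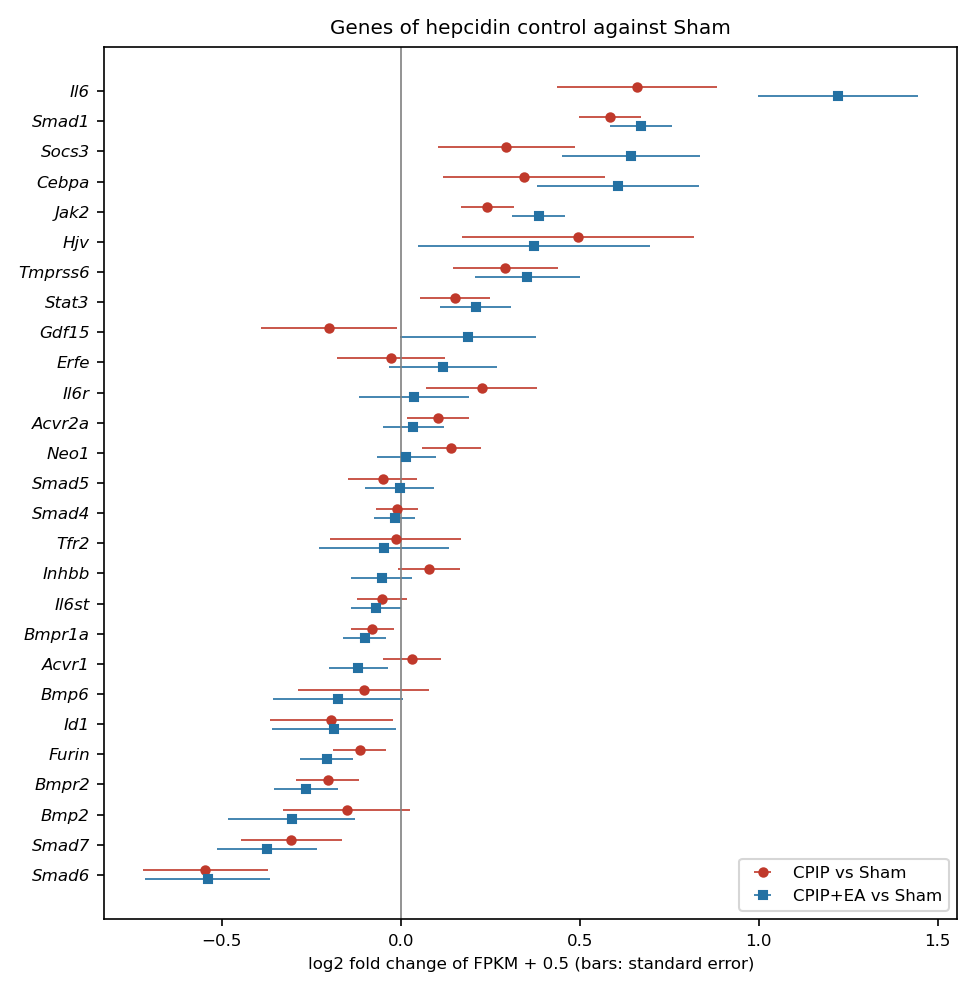
Log2 fold change of FPKM + 0.5 against Sham (x axis) for the 27 tested genes of hepcidin control, in CPIP (circles) and CPIP+EA (squares). Bars are standard errors, and both comparisons use the same Sham libraries. The values run from Smad6 at -0.55 and -0.54 to Il6 at 0.66 and 1.22, and of all those shown only Smad1 in CPIP+EA against Sham was called.

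Outside hepcidin control, limma called 0 of the other 51 pathway genes tested in any comparison. At an unadjusted p under 0.05 there were 1, 3 and 2 of them for CPIP against Sham, CPIP+EA against CPIP and CPIP+EA against Sham, or 1.96, 5.88 and 3.92% against 8.66, 4.29 and 12.2% of all genes. Among genes of uptake, reduction and export, Steap1, a metalloreductase family member, had 1.02, 0.36 and 0.63 FPKM in the Sham libraries, 1.03, 1.19 and 1.39 in those of CPIP, and 0.97, 0.77 and 1.65 in those of CPIP+EA, a log2 change of 0.58 (adjusted p = 0.550) for CPIP against Sham. Slc22a17, a receptor for the siderophore carrier lipocalin-2, had 92.67, 85.08 and 87.27 FPKM in the Sham libraries, 93.00, 90.14 and 97.38 in those of CPIP, and 84.26, 83.75 and 80.56 in those of CPIP+EA, a log2 change of -0.17 (adjusted p = 0.997) for CPIP+EA against CPIP. All CPIP+EA values of Slc22a17 lay below the Sham and CPIP values.

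Among the heme genes, Lrp1, the receptor that takes up heme bound to hemopexin, had 20.20, 19.84 and 20.21 FPKM in the Sham libraries, 18.17, 19.52 and 18.36 in those of CPIP, and 15.28, 12.30 and 16.18 in those of CPIP+EA. The ranges of the 3 groups did not overlap and were lowest in CPIP+EA, with a log2 change of -0.36 (unadjusted p = 0.00426, adjusted p = 0.997) for CPIP+EA against CPIP and -0.46 (adjusted p = 0.0568) for CPIP+EA against Sham. Among the genes of iron-sulfur cluster assembly, Nfs1, the cysteine desulfurase that supplies the sulfur, had 3.99, 1.28 and 2.85 FPKM in the Sham libraries, 5.81, 3.91 and 1.70 in those of CPIP, and 1.43, 0.77 and 1.79 in those of CPIP+EA, a log2 change of -1.15 (adjusted p = 0.997) for CPIP+EA against CPIP. In the list of iron storage and sensing, 0 of 8 tested genes had an unadjusted p under 0.05 in any comparison.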

How the data were processed

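RNA-Seq of 9 DRG libraries was used, 3 each of Sham, CPIP and CPIP+EA, with groups and replicate numbers taken from the sample titles. The titles name the control group Con, and it was taken to be the sham group of the published study. The authors filtered the reads with SOAPnuke 1.5.2 and deposited 1 table of FPKM values per gene and library, rounded to 2 decimals. The aligner, genome build and annotation are not given in the sources used here. The same table holds the authors' comparisons between groups (log2 ratio, P-value and Q-value), which were not used.

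The test was run on log2 of FPKM plus 0.5 in R 4.3.3, using limma 3.58.1 with the functions lmFit, contrasts.fit and eBayes and a trend of the variance on the mean. The 9 libraries entered 1 fit without covariates, for the 17187 genes whose mean FPKM reached 0.1. P-values were two-sided, with Benjamini-Hochberg adjustment over every gene tested. The study's threshold was used, an adjusted p under 0.01 together with a change of 1.5-fold or more in either direction. A fold change on this scale understates the change of genes with low values. The script was tested on simulated data.

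The members, gene lists and tests were chosen with earlier results of these data known. Beside the members, the text names pathway genes called in any comparison and, for each comparison, up to 6 with the smallest unadjusted p under 0.05, and the 5 genes with the smallest RMS difference from Hamp. List genes were matched by symbol or by RefSeq gene ID. Each of these settings was changed in turn: the pseudocount (0.1 or 1), the filter (none, or a mean of 1 FPKM), the scaling (quantile, TPM or median centred), the variance trend (none or robust), the replicate number (as a block), the samples (only the groups compared, or all but 1 library) and the threshold (an adjusted p under 0.05 alone). Tables and figures were made with Python 3.11.15, pandas 2.3.3, numpy 2.4.6 and matplotlib 3.10.9.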

Additional observations from a re-analysis of the deposited data

How the results depend on the processing

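The count of 0 called rows among the 7 iron genes other than Hamp held in all 3 comparisons under every alternative tried, the left-out libraries included. For CPIP+EA against Sham, the number of pathway genes called was 0 in place of 1 on a TPM scale, without a trend, with the replicate block and with only the 2 groups compared, and it was 3 at an adjusted p under 0.05 with no fold limit, a setting that gave 1 for CPIP against Sham. With each library left out in turn it ran from 0 to 1, and it was 1 only without CPIP replicate 3. The log2 change of Hamp against Sham moved most with the pseudocount and reached 5.33 for CPIP and 5.13 for CPIP+EA on the TPM scale. The cause of these shifts was not tested beyond what the settings themselves change.

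Small changes turned direction under another scaling. With quantile normalization Fth1 changed by 0.063 and Smad6 by -0.0071 for CPIP+EA against CPIP, and Ftl1 by -0.028 for CPIP+EA against Sham. On the TPM scale Slc11a2 changed by -0.012 and Smad6 by -0.0078 for CPIP+EA against CPIP, and Slc40a1 (ID 170840) by -0.0017 and Ftl1 by -0.0046 for CPIP+EA against Sham.

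With each library left out in turn, these log2 changes also crossed 0. For CPIP against Sham the ranges were -0.30 to 0.021 for Slc40a1 (ID 170840), -0.099 to 0.032 for Tfrc, -0.077 to 0.44 for Tf, -0.064 to 0.24 for Fth1 and -0.18 to 0.13 for Hfe. Between CPIP+EA and CPIP they were -0.082 to 0.43 for Slc40a1, -0.37 to 0.25 for Tf, -0.24 to 0.17 for Fth1, -0.16 to 0.056 for Ftl1, -0.057 to 0.078 for Slc11a2, -0.053 to 0.086 for Smad6 and -0.31 to 0.067 for Steap1. Between CPIP+EA and Sham they were -0.25 to 0.26 for Slc40a1, -0.26 to 0.14 for its summed rows, -0.25 to 0.37 for Tf, -0.15 to 0.26 for Fth1 and -0.068 to 0.15 for Ftl1. Others kept their sign but moved by over 1.5 times: against Sham, Slc11a2 ran from 0.086 to 0.23 in CPIP and from 0.093 to 0.24 in CPIP+EA, Ftl1 from 0.016 to 0.19 in CPIP and Tfrc from 0.036 to 0.17 in CPIP+EA, and Tfrc ran from 0.071 to 0.20 between CPIP+EA and CPIP. Of the pathway values, Bmpr2 ran from -0.26 to -0.10 in CPIP and from -0.32 to -0.16 in CPIP+EA, Steap1 from 0.37 to 0.78 in CPIP and Il6 from 0.44 to 0.89 in CPIP, all against Sham, and Smad1 from 0.035 to 0.14 and Il6 from 0.33 to 0.78 between CPIP+EA and CPIP. With a pseudocount of 1, the last change of Il6 was 0.37, and with 0.1 it reached 0.9999. None of these changes had passed the threshold.

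The replicate numbers did not pair the samples, since same-numbered libraries had correlations of their deviations from the group means between -0.236 and 0.297, against -0.223 to 0.28 for different numbers. With the replicate block, Smad1 had an adjusted p of 0.0377 for CPIP+EA against Sham. With a mean FPKM of at least 1 required, the row of Slc40a1 with ID 108348131 and Il6 were not tested. The depth behind each FPKM was not used here, and 3 libraries per group limit what can be told apart.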
